A study of Mus musculus with 8 samples.

Results

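Complex I, the NADH:ubiquinone oxidoreductase of the inner mitochondrial membrane, is the entry point of electrons from NADH into the respiratory chain. Most of its subunits are encoded in the nucleus by genes with Nduf symbols and imported, the remainder are made in the mitochondrion itself, and dedicated assembly factors join the parts without staying in the finished enzyme. The heart, which lives mainly on oxidative phosphorylation, expresses these genes at high levels. All rows of the deposited count table whose symbol begins with Nduf and holds no -ps were taken, which gave 46 genes of 27304. They comprise 36 subunits, 8 assembly factors (Ndufaf1 to Ndufaf8) and the genes Ndufa4, whose product is now assigned to complex IV, and Ndufa4l2, its hypoxia-inducible relative. The distal subunit Ndufb1 had no row under that symbol, and 1 Nduf row with -ps was left out, so the 36 are not every nuclear subunit. The subunits were placed by role in the NADH-binding N module, the ubiquinone-binding Q module, and the proximal and distal parts of the membrane arm.

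RNA was sequenced from hearts of mice of the inbred 129/Sv strain, all male. The control group (labelled Sham, 4 libraries) received a standard diet for 13 weeks and the adenine group (4 libraries) a diet with 0.15% adenine for 13 weeks, which injures the kidney tubules and brings about chronic kidney disease. No allele or other agent is named for either group. The age of the mice, and whether each library came from a separate animal, are not given, so the spread behind the p-values is that of these 8 libraries and could be partly or wholly technical.

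Values listed per diet are in the order of libraries 1 to 4. Total counts ran from 15626620 in adenine 2 to 33886385 in control 2. All 46 genes passed the low-count filter, with 176 to 29685 reads per gene and library. Counting error is therefore small for members with many reads. It is not small for those with few, such as Ndufaf6 with 184 to 400 reads per library. The 9 cardiomyocyte markers summed to 43791 to 61694 CPM (each count as a share of its library, per 1e+06 reads after TMM scaling) in the controls and 31817 to 52328 CPM in the adenine libraries, and none of them was at 0 in any library. Adenine 3 stood apart: its 6 macrophage markers summed to 2478 CPM, where the rest of the diet had 256 to 401 and the controls 322 to 555, and its cardiomyocyte sum of 31817 CPM was the lowest of all. Lyz2 alone gave 2065 CPM of the macrophage sum. The other macrophage markers were also highest in adenine 3, by less, from Cd68 (57.0 CPM, highest control 16.5) to Csf1r (86.1 CPM, highest control 67.1). The group's values are therefore also given without adenine 3. In bulk tissue, fewer cells of a type and less RNA per cell cannot be told apart.

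The promoters shown here belong to the assembly factors with the largest fold changes, Ndufaf3 and Ndufaf4, to Ndufa8, the member furthest below its control mean in any single library, and to Ndufb4, which carries the most matches to an NRF1 motif. Each is the 250 bases before the RefSeq start on GRCm38.p6, read 5′ to 3′ on the gene's strand, with matches to the motifs NRF1 (GCGCA, any base, GCGC), YY1 (AAGATGGC), ETS (CCGGAAG) and ERR (TCAAGGTCA), searched on both strands, in capitals. All capitals in them are NRF1 matches.
Ndufaf3, chr9:108567437-108567686, minus strand: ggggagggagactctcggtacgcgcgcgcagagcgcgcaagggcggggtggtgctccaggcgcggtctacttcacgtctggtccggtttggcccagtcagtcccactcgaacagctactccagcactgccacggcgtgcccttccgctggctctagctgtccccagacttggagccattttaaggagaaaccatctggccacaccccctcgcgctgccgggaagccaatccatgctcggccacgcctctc
Ndufaf4, chr4:24897833-24898082, plus strand: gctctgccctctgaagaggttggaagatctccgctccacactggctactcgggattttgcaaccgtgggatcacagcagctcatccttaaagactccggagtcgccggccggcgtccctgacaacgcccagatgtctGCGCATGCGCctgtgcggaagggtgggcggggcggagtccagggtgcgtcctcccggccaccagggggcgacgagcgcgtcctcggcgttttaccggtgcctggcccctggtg
Ndufa8, chr2:36049339-36049588, minus strand: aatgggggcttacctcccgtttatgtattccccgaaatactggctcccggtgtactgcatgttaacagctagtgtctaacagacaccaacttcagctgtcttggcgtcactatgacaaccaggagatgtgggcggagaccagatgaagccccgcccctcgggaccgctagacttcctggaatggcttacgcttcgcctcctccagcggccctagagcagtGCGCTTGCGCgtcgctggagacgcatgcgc
Ndufb4, chr16:37654369-37654618, minus strand: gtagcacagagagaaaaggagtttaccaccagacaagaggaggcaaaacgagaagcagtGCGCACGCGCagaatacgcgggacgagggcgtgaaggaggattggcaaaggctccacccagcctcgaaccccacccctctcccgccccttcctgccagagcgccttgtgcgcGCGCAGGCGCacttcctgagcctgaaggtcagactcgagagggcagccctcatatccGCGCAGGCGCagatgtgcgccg

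NRF1, a transcription factor known for binding promoters of respiratory genes, had a match in 10 of 42 promoter windows (23.8%) that RefSeq lists for 40 of the 46 genes, counted over 250 bases before to 50 after the start. Among all 32851 windows of that length the share was 4.6%. The YY1 motif was found in 19% of the members' windows against 2.75% of all, the ETS motif in 14.3% against 8.86%, and the ERR motif in 0% against 0.423%. Other mitochondrial genes had shares above or below these, depending on the motif. For nuclear genes of complexes II to V they were 27.3% for NRF1, 9.09% for YY1, 30.3% for ETS and 6.06% for ERR. For mitochondrial ribosomal proteins they were 17.3%, 16%, 34.7% and 0%. The NRF1 share was thus not particular to complex I. The ETS share was below that of both sets, and the YY1 share was above that of both. Windows can overlap where a gene has 2 starts, as for Ndufa5 and Ndufa7. A match is a run of letters and not evidence of binding. The 9 genes with an NRF1 match had a median log2 fold change (adenine minus control) of -0.21, and the 31 with a window and no match had -0.18.

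The comparison of the diets asked whether transcripts of nuclear complex I genes differ in hearts of mice with adenine-fed kidney disease. None of the 46 genes was called at an adjusted p under 0.05 (edgeR quasi-likelihood test, Benjamini-Hochberg over 20093 genes), where 0.0398% of all genes tested were called, every one of them higher. DESeq2 and limma-voom, which called 1.43% and 0.0249% of all genes, also called 0 of the 46. The point estimates lay close together and mostly below 0: 45 of 46 log2 fold changes were negative, with a median of -0.18 and a range from -0.36 to 0.02, against 45.8% of all genes below 0 and a median of 0.05. At an unadjusted p under 0.05, 2 members were lower, which is 2 of 46 beside 6.63% of all genes tested, and 0 were higher, beside 10.9% of all genes. Both of the lower members lay at 10 to 100 CPM, where 940 of 7426 genes tested were lower at that p and 184 higher. The median SE of the members' log2 fold changes was 0.17, so a typical difference was about the size of its error.

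The shift of the members has to be read beside their abundance, because the fold changes of all genes depended on it. Of the 36 members with a mean of 100 to 1000 CPM the median log2 fold change was -0.17, and it was -0.17 also over all 940 genes tested in that range. In the same range, 35 of the 36 members and 80.1% of all genes were below 0. The other 10 members, between 10 and 100 CPM, had a median of -0.24 against -0.15 over 7426 genes, of which 77.8% were below 0. In contrast, genes under 1 CPM had a median of 0.80. The plot of fold change against abundance shows the members with a running median over all genes tested. That line is not drawn for the most abundant genes, so some subunits lie past its end.

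**Figure D1:**
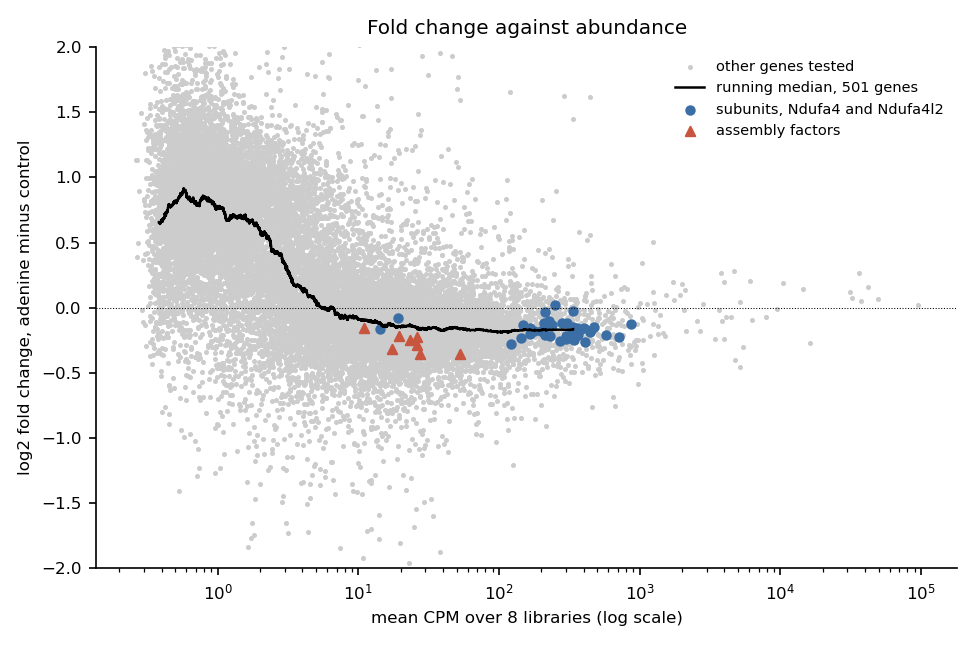
Log2 fold change (adenine minus control) against mean CPM over 8 libraries (log axis) for all genes tested (grey; the axis stops at 2 and -2), with their running median, the 36 subunits with Ndufa4 and Ndufa4l2 (circles) and the 8 assembly factors (triangles). The running median stops short of the most abundant genes, so some circles lie past its end. The circles between 100 and 1000 CPM have a median of -0.17, and the triangles, between 10 and 100 CPM, have a median of -0.27.

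The values of the whole group depended on the normalization. With upper-quartile factors the members' median was -0.04 with 34 of 46 below 0, while the median of all genes was 0.20. With cyclic loess, which removes trends along abundance, it was -0.03 with 28 of 46 below 0, against 0.01 over all genes.

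The assembly factors included the members with the lowest p-values. All 8 had negative log2 fold changes, from -0.36 to -0.16, and the 6 lowest p-values of the 46 members belonged to them, although none passed over all genes. By size they overlapped the subunits: Ndufb6 at -0.28, Ndufb10 at -0.27 and Ndufb8 at -0.26 had larger differences than Ndufaf7, Ndufaf1, Ndufaf2 and Ndufaf6. All 8 lay below their control mean in each of the 4 adenine libraries, which held for 6 of the other 38 members. The share over all genes was not counted, and the other members mostly lie at 100 to 1000 CPM. Over all genes at 10 to 100 CPM, the range of the 8 factors, the median deviation was itself negative in each adenine library. It was -0.11, -0.27, -0.08 and -0.16 in adenine 1 to 4, against -0.17, -0.31, -0.27 and -0.30 for the assembly factors. The direction of all 8 was negative in each of the 19 alternative settings, upper-quartile factors and cyclic loess included. Their median of -0.27 was -0.12 with upper-quartile factors and -0.10 with cyclic loess.

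Ndufaf3 works early in assembly, together with Ndufaf4 on the Q module. Ndufaf3 (ENSMUSG00000070283, chr9:108565537-108567434, minus strand) had 30.3, 33.3, 31.4 and 28.7 CPM in the 4 controls and 24.4, 23.7, 24.9 and 23.6 CPM in the 4 adenine libraries. Every adenine library was below every control, and the adenine libraries lay close together. With 388 to 982 reads per library, counting error alone can be as large as that spread. Its log2 fold change was -0.36 (SE 0.12) with an adjusted p of 0.24 (edgeR). It had -0.32 to -0.40 when any 1 library was left out. 48 bases of its exons are shared with Impdh2 on the opposite strand, at 28.8 to 40.8 CPM, and the sources used here do not say if reads were counted by strand.

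Ndufaf4 (ENSMUSG00000028261, chr4:24898083-24905001, plus strand) had 61.0, 72.1, 50.8 and 53.4 CPM in the 4 controls and 49.3, 50.9, 38.7 and 46.5 CPM in the 4 adenine libraries. Adenine 2 and control 3 were level, so the groups met at 1 point. The log2 fold change of Ndufaf4 was -0.36 (SE 0.15) with an adjusted p of 0.27 (edgeR).

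Ndufaf2, a late factor that stands in for an accessory subunit of the N module, was the other member whose diets did not overlap, with 21.7, 20.1, 22.7 and 19.9 CPM in the controls and 19.6, 14.9, 19.7 and 18.2 CPM in the adenine libraries. The gap was narrow: control 4 and adenine 3 differed by less than the spread within either diet. The log2 fold change of Ndufaf2 was -0.22 (SE 0.14; edgeR adjusted p = 0.38). In all, 2 of 46 members had no overlap in the lower direction and 0 in the higher, beside 3.84% of all genes tested in the lower direction and 3.45% in the higher. At 10 to 100 CPM, the range of Ndufaf2 and Ndufaf3, 527 of 7426 genes tested had no overlap in the lower direction and 92 in the higher. Ndufaf2 (ENSMUSG00000068184, chr13:108002715-108158623, minus strand) shares 1955 exon bases with the long noncoding RNA B230220B15Rik on the opposite strand, so part of its counts may belong there.

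Ndufaf5, a methyltransferase-like enzyme that modifies the core subunit Ndufs7, had 19.8, 23.1, 19.0 and 15.5 CPM in the controls and 16.9, 15.6, 16.3 and 13.5 CPM in the adenine libraries. Ndufaf8, the partner of Ndufaf5, had 25.7, 30.4, 27.9 and 31.4 CPM in the controls and 25.7, 21.7, 20.3 and 27.1 CPM in the adenine libraries. In both genes the lowest control overlapped the adenine values. The log2 fold changes were -0.31 (SE 0.15) for Ndufaf5 and -0.28 (SE 0.14) for Ndufaf8, with adjusted p-values of 0.30 and 0.31 (edgeR).

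Ndufaf7, a methyltransferase that acts on a core subunit, had 26.2, 30.5, 25.1 and 19.5 CPM in the controls and 21.2, 19.99, 24.4 and 19.4 CPM in the adenine libraries. Ndufaf1, a scaffold for the early membrane arm, had 28.3 ± 5.76 CPM in the controls and 24.2 ± 1.13 CPM in the adenine libraries, and Ndufaf6 had 11.5 ± 1.38 and 10.3 ± 0.881 CPM (SD, n = 4 per diet). The controls of Ndufaf1 enclosed all of its adenine values. The log2 fold changes of Ndufaf7, Ndufaf1 and Ndufaf6 were -0.25 (SE 0.16), -0.23 (SE 0.16) and -0.16 (SE 0.15), with adjusted p-values of 0.37 to 0.54 (edgeR). In Ndufaf1, Ndufaf5 and Ndufaf7 the spread of the controls ran from a high in control 2 to a low in control 4, and the assembly factors without control 2 had a median of -0.23.

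**Figure D2:**
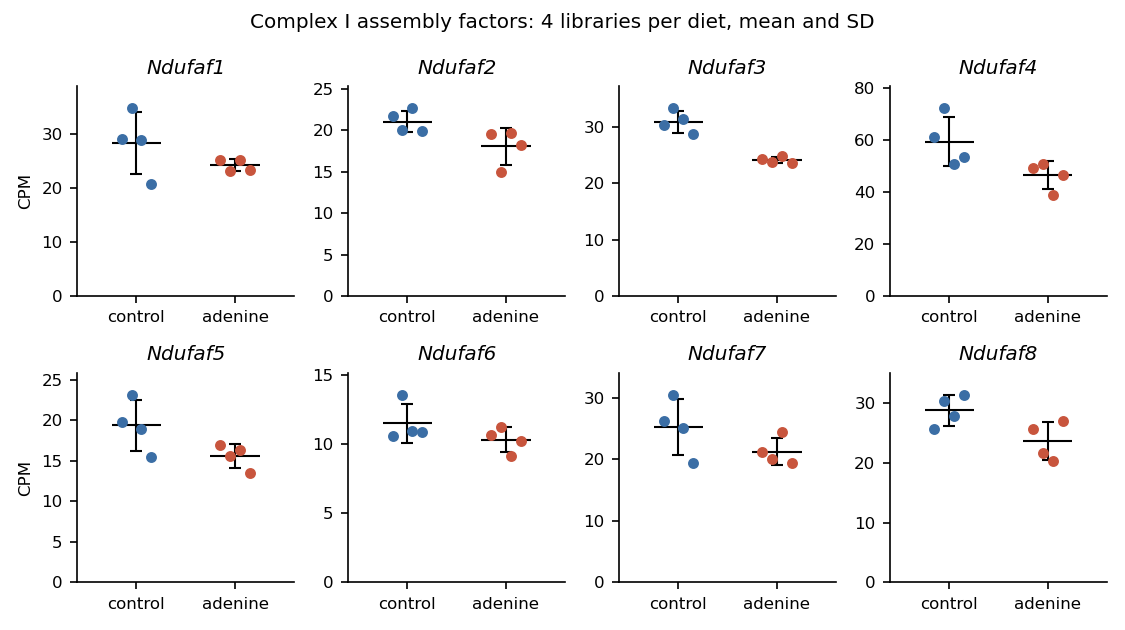
CPM of the 8 Ndufaf genes in each library (points), with mean and SD, for 4 control and 4 adenine libraries; each axis starts at 0. The adenine libraries of Ndufaf3 sit between 23.6 and 24.9 CPM, below its 4 controls, and those of Ndufaf2 also lie below its controls, while the other 6 genes overlap between diets.

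Assembly factors with other names were also measured. Of 13 measured genes (Coa1 was not analysed here), none was called and all 13 were below 0, with a median log2 fold change of -0.27 and a range from -0.47 to -0.05. All genes tested at 10 to 100 CPM, the range of these 13, had a median of -0.15 with 77.8% below 0. With upper-quartile factors, and also with cyclic loess, 11 of the 13 were below 0 and their median was -0.12. Tmem126b, a membrane factor of the early assembly complex, had 29.6 ± 3.69 CPM in the controls and 21.3 ± 2.87 CPM in the adenine libraries, without overlap. Its log2 fold change was -0.47 (SE 0.15) with an adjusted p of 0.23 (edgeR), and Foxred1, an oxidoreductase-like factor, had -0.36 (SE 0.14; edgeR adjusted p = 0.27).

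The core subunits carry out electron transfer. In the N module, Ndufv1 binds NADH and the flavin, and Ndufv2 and Ndufs1 carry iron-sulfur clusters. Ndufv1 had 659, 794, 504 and 499.7 CPM in the 4 controls and 614, 528, 411 and 569 CPM in the 4 adenine libraries. Ndufs1 had 363, 518, 321 and 249.2 CPM in the controls and 316, 334, 312 and 265 CPM in the adenine libraries. For Ndufs1, the controls alone spanned all adenine values, with control 2 highest and control 4 lowest of the 8 libraries. The log2 fold changes were -0.21 (SE 0.21) for Ndufv1, -0.17 (SE 0.17) for Ndufv2 and -0.24 (SE 0.21) for Ndufs1, with adjusted p-values of 0.50 to 0.57 (edgeR). Ndufs1 had -0.02 without control 2 and -0.39 without control 4.

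In the Q module, whose products carry electrons to ubiquinone, the core genes Ndufs3, Ndufs7 and Ndufs8 had log2 fold changes of -0.12 (SE 0.17), -0.16 (SE 0.21) and -0.11 (SE 0.16). Ndufs7 had 444, 445, 370.2 and 424 CPM in the controls and 509, 337, 259 and 407 CPM in the adenine libraries. It was highest of the 8 libraries in adenine 1 and lowest in adenine 3. Ndufs8 had 219 ± 24.6 CPM in the controls and 202 ± 31.1 CPM in the adenine libraries (SD, n = 4), with 203 CPM in adenine 3. Adjusted p-values of these 3 genes were 0.66 to 0.68 (edgeR).

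The 29 accessory subunits, which surround the core and are needed for its stability, had a median log2 fold change of -0.18, and 28 of 29 were below 0. The 7 accessory subunits of the N module had a median of -0.20, the 2 of the Q module -0.17, the 9 of the proximal membrane arm -0.17 and the 10 of the distal membrane arm -0.17. The differences between these medians were not tested. Ndufab1, an acyl carrier protein present in both arms, had 237, 279, 238 and 244 CPM in the controls and 271, 189, 174 and 225 CPM in the adenine libraries, with a log2 fold change of -0.21 (SE 0.17; edgeR adjusted p = 0.47). Its adenine libraries spanned a wider range than its controls and enclosed 3 of them.

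Ndufb9, a distal subunit, was the only member with a positive log2 fold change, 0.02 (SE 0.19; edgeR adjusted p = 0.96), and its sign was negative in several other settings, DESeq2 size factors among them. It had 208, 240.4, 247 and 305 CPM in the controls and 299, 256, 186 and 273 CPM in the adenine libraries. The adenine range enclosed the controls except control 4. Ndufa4 had 903 ± 96.4 CPM in the controls and 826 ± 66.9 CPM in the adenine libraries. Ndufa4l2 had 17.9, 10.4, 14.9 and 16.9 CPM in the controls and 13.1, 10.8, 14.8 and 14.8 CPM in the adenine libraries. The log2 fold changes of Ndufa4 and Ndufa4l2 were -0.13 (SE 0.17) and -0.17 (SE 0.19), with adjusted p-values of 0.66 and 0.60 (edgeR).

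**Figure D3:**
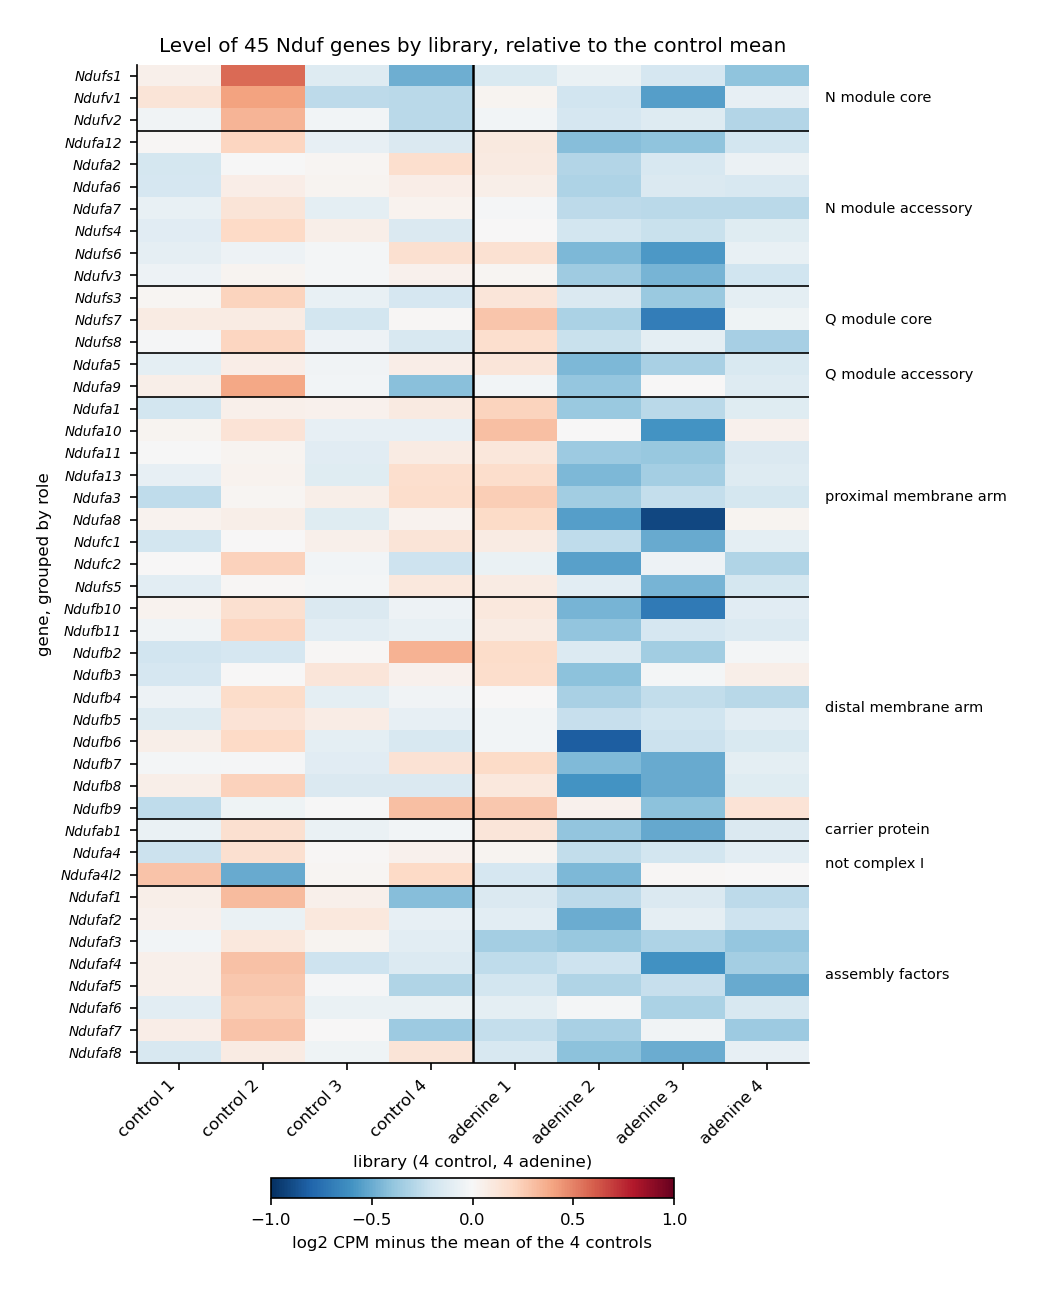
Log2 CPM of each of 45 of the 46 genes in each library minus the mean of its 4 controls (colour), with genes grouped by role. Adenine 2 and adenine 3 are mostly blue, adenine 1 is mostly red apart from the assembly factors, and single genes such as Ndufa8 at -0.91 are far below their control mean in adenine 3.

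The 4 libraries of the adenine diet were far from uniform. Relative to the control mean, the median of the 46 genes was 0.08 in adenine 1, -0.32 in adenine 2, -0.31 in adenine 3 and -0.13 in adenine 4, against -0.04 to 0.13 in the controls (log2 CPM). The subunits alone had 0.11, -0.34, -0.34 and -0.13 in adenine 1 to 4. All genes at 100 to 1000 CPM, the range of most members, had -0.05, -0.35, -0.14 and -0.17. Beside genes of like abundance, the subunits were thus level in adenine 2, higher in adenine 1 and lower in adenine 3. Adenine 2, with the smallest total count, and adenine 3 were each below the control mean for 44 of the 46 genes, adenine 4 for 41 and adenine 1 for 16. Of the subunits, 7 of 36 were below the control mean in adenine 1, as were 8 of 8 assembly factors. Without adenine 1 the median log2 fold change of the members was -0.28, without adenine 3 it was -0.13 with 44 of 46 below 0, and without both libraries numbered 2 it was -0.07 with 40 of 46 below 0. None of the 46 was called in any of these fits.

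The members were not low by one amount within adenine 3. 12 of them were more than 0.5 below their control mean on the log2 scale there, compared with 4 in adenine 2, 1 in adenine 4 and 0 in adenine 1. Among these, named after their values were seen, Ndufa8, a proximal subunit, had 380.1, 386, 340.4 and 379 CPM in the controls and 425, 254, 197 and 379 CPM in the adenine libraries, so that adenine 3 held less than the lowest control and adenine 1 more than the highest. Ndufb10, a distal subunit, had 454, 493, 399 and 426 CPM in the controls and 476, 320.3, 270.2 and 409 CPM in the adenine libraries. Ndufa10, a proximal subunit, was at 222 CPM in adenine 3, while adenine 1, 2 and 4 ranged from 337 to 414 CPM and the controls from 318 to 369 CPM. Other members stayed at the control level in the same library: the deviation in adenine 3 was 0.00 for Ndufa9, -0.02 for Ndufb3 and -0.05 for Ndufc2. Beside this, the cardiomyocyte markers of adenine 3 had a median deviation of -0.69 and its macrophage markers one of 1.58. The part of either in these values was not tested.

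Ndufb6, a distal subunit, was lowest in another library, with 75.03 CPM in adenine 2, while adenine 1, 3 and 4 ranged from 115 to 130.1 CPM and the controls from 119 to 153 CPM. It had the lowest p of the subunits, with a log2 fold change of -0.28 (SE 0.18; edgeR adjusted p = 0.38). 257 of its exon bases are shared with Smim27 on the opposite strand, at no more than 2.09 CPM.

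Levels can be compared between genes only per length, here as CPM per kilobase of the principal transcript. In the controls Ndufa4 had the highest level per length, 1480 ± 158, followed by the subunits Ndufs6 with 684 ± 53.3 and Ndufa3 with 611 ± 74.6 (SD, n = 4). The difference between Ndufs6 and Ndufa3 was smaller than the SD of Ndufa3. All assembly factors lay far lower, from 10.6 ± 1.28 for Ndufaf6 and 14.5 ± 2.59 for Ndufaf7 to 36.9 ± 3.31 for Ndufaf8. The lowest subunit but one was Ndufab1 at 71.6 ± 5.67, so that the assembly factors and these subunits did not overlap. Ndufb2 was the exception with 4.47 ± 0.809, the lowest of all members. Its principal transcript is annotated at 4371 bases, long for a small subunit, and its exons share bases with 3 other genes, 1 of them, Gm42420, on the same strand, so its level per length is uncertain. The principal transcripts of Ndufab1 and Ndufaf4, at 3479 and 3632 bases, are also long, so their levels per length are uncertain too.

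**Figure D4:**
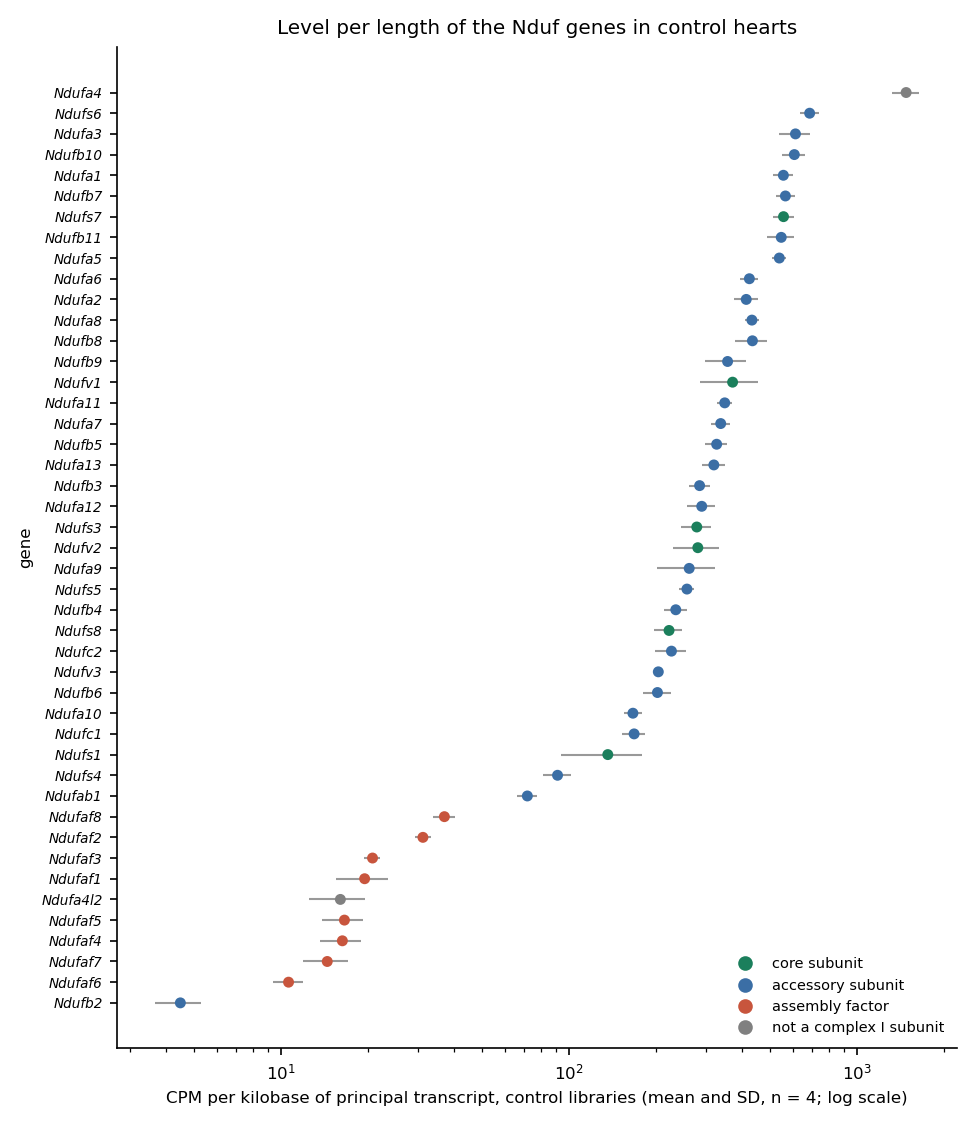
Level per length of 45 of the 46 genes in the 4 control libraries (mean and SD, CPM per kilobase of principal transcript, log axis), ordered by the mean over all 8 libraries and coloured by role. The assembly factors lie between 10.6 and 36.9, below every subunit except Ndufb2 at 4.47.

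The mitochondrial genome encodes 7 further subunits, which form the core of the membrane arm. None of the 7 was called, and their log2 fold changes were all positive, from 0.04 (SE 0.22) for mt-Nd3 to 0.21 (SE 0.23) for mt-Nd6, with adjusted p-values of 0.59 to 0.92 (edgeR). The other 5 had 0.07 for mt-Nd1, 0.15 for mt-Nd2, 0.12 for mt-Nd4, 0.09 for mt-Nd4l and 0.19 for mt-Nd5. All 7 signs turned negative once trends along gene length and GC content were removed. Together they took 8.54, 9.72, 9.98 and 9.86% of counts in the 4 controls and 11.6, 11.8, 9.66 and 9.72% in the 4 adenine libraries (exact two-sided permutation p = 0.257). Adenine 1 and adenine 2 were above all controls and the other two within their range.

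The 46 nuclear genes took 1.19, 1.199, 1.15 and 1.31% of counts in the controls and 1.201, 1.04, 1.01 and 1.21% in the adenine libraries. Adenine 2 and adenine 3 were below all controls. For each count on the 36 nuclear subunits there were 7.81, 8.93, 9.56 and 8.34 counts on the mitochondrial subunits in the controls and 10.6, 12.6, 10.6 and 8.86 in the adenine libraries. This ratio was above every control in 3 of the 4 adenine libraries, and adenine 4 lay among the controls. It contains the members' counts and was not tested.

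**Figure D5:**
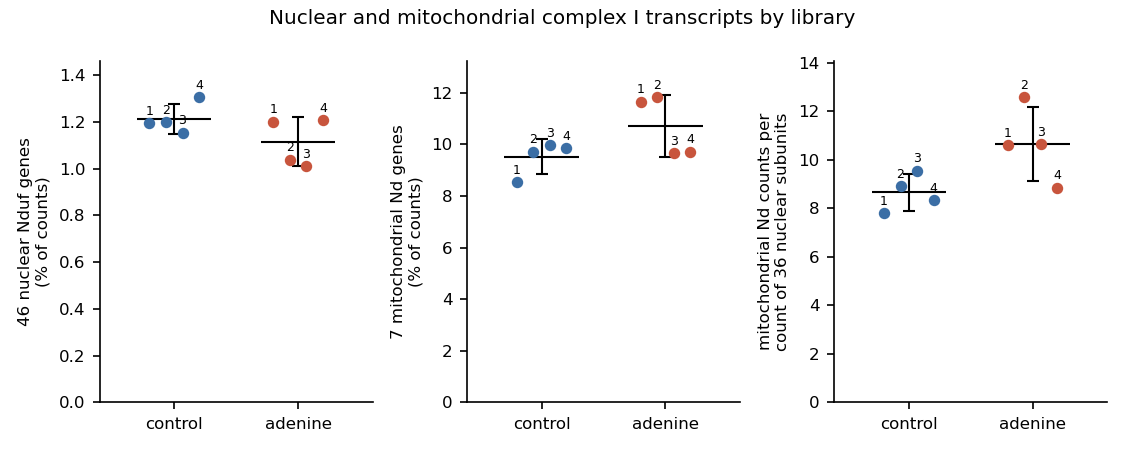
Share of counts on the 46 nuclear Nduf genes, share on the 7 mitochondrial Nd genes, and counts on the latter per count on the 36 nuclear subunits, for each library (points numbered by replicate) with mean and SD; all axes start at 0. The ratio lies between 7.81 and 9.56 in the controls and between 8.86 and 12.6 in the adenine libraries.

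The nuclear genes of complexes II to V, which pass on the electrons and make ATP, and those of the mitochondrial ribosome were set beside these values. For complexes II to V, 0 of 39 genes were called, all 39 were below 0, and the median log2 fold change was -0.20. All genes tested at 100 to 1000 CPM, the range of most of the 39, had a median of -0.17 with 80.1% below 0. With upper-quartile factors 26 of the 39 were below 0 (median -0.05), and with cyclic loess 25 (median -0.04). Within each complex the 2 genes with the lowest p are given. Cox7a1 and Cox8b, muscle isoforms of complex IV, had -0.52 (SE 0.20) and -0.40 (SE 0.18), and Atp5g1 and Atp5g2 of ATP synthase had -0.36 (SE 0.20) and -0.23 (SE 0.16). Sdha and Sdhc of complex II had -0.40 (SE 0.23) and -0.22 (SE 0.19), and Uqcr11 and Uqcrq of complex III had -0.25 (SE 0.20) and -0.23 (SE 0.19). Adjusted p-values of these 8 genes were 0.26 to 0.50 (edgeR).

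For mitochondrial ribosomal proteins, 0 of 77 tested genes were called, 73 were below 0, and the median was -0.20, with Mrpl36 at -0.46 (SE 0.14) and Mrpl3 at -0.47 (SE 0.14). The medians of complex I subunits, complexes II to V and mitochondrial ribosomal proteins thus lay between -0.17 and -0.20. With upper-quartile factors 56 of the 77 ribosomal protein genes were below 0, and with cyclic loess 49. Of 9 regulators of mitochondrial genes, none was called and 7 were below 0. Tfam, which packages and transcribes mitochondrial DNA, was at 35.7 ± 6.48 CPM with the control diet and 27.3 ± 1.86 CPM with adenine (SD, n = 4 each), a log2 fold change of -0.38 (SE 0.15). Esrra, a nuclear receptor of energy metabolism, had -0.39 (SE 0.19). Nrf1 had 0.19 (SE 0.15) and Ppargc1a, the coactivator PGC-1 alpha, -0.08 (SE 0.20), both named for their known role. Adjusted p-values of these 4 regulators were 0.26 to 0.82 (edgeR).

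Markers of other cell types were summed in the same libraries. None of their genes was called by edgeR, while DESeq2 called 2 endothelial, 2 fibroblast and 4 erythroid markers lower in the adenine libraries. Of 5 endothelial markers all were below 0, with sums of 555 to 669 CPM in the controls and 366 to 496 CPM in the adenine libraries. Of 6 fibroblast markers 4 were below 0, and of 5 mural markers all. The sums of the 6 fibroblast markers were 1069 to 1594 CPM in the controls and 605 to 923 CPM in adenine 1, 2 and 4, with adenine 3 at 2001 CPM. Col1a2 and Col1a1 gave 957.9 and 433.3 CPM of that sum in adenine 3. The other fibroblast markers, Dpt, Tcf21, Pdgfra and Dcn, were each below every control in adenine 3. The 5 mural markers summed to 694 to 1025 CPM in the controls and 478 to 797 CPM in the adenine libraries. The 4 erythroid markers analysed summed to 26042 CPM in control 1 alone, to 7005 to 8055 CPM in controls 2 to 4 and to 1657 to 3083 CPM in the adenine libraries. Sums were 5.32 to 7.53 against 11.4 to 20.1 CPM for 4 lymphocyte markers, and 3.39 to 36.6 against 7.48 to 14.4 CPM for 4 adipocyte markers. Il7r alone gave 15.15 CPM of the lymphocyte sum in adenine 3, where Ms4a1, Cd3e and Cd79a lay within their control ranges. All genes tested at 1 to 10 CPM, the range of the lymphocyte markers, had a median log2 fold change of 0.28. None of the markers summed here was at 0 in any library, and their part in the members' values was not tested.

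6 members have an annotated pseudogene copy at 90% identity or more over at least 50% of the principal transcript: Ndufa11, Ndufa7, Ndufb11, Ndufb7, Ndufs3 and Ndufs6. The closest is that of Ndufs3, identical at 98.6% of 792 aligned bases. The sources used here do not say how reads matching both copies were counted, so the levels of these 6 genes are uncertain to that extent. Exon bases were shared with another annotated gene by 19 of the 46 members, and on the same strand by 3, Ndufb2, Ndufb8 and Ndufb9.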

How the data were processed

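The authors deposited raw read counts per gene, not scaled, for 27304 genes in 8 libraries. Per the submitters' processing notes, FastQC 0.11.9, STAR 2.7.6a and GRCm38.p6 were used. The sources used here give no counting program, annotation or strand setting. Groups came from the sample titles. The members and lists were chosen with earlier results of these data known.

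Counts were tested with edgeR 4.0.16 in R 4.3.3 (default low-count filter by group, TMM factors, quasi-likelihood F-test of the diet, Benjamini-Hochberg over 20093 genes), after a check on simulated counts. SEs were derived from the F statistic. Lengths and positions came from GENCODE M21 on GRCm38, to which 27275 identifiers and all 46 members matched. Roles were assigned by gene symbol from a list. Per-length levels used the APPRIS principal transcript. Named were members with the 5 lowest p per direction, core subunits, assembly factors, extremes of level per length, Ndufa4, Ndufa4l2, Ndufab1, mitochondrial subunits and the 2 lowest p of each compared list. Alternatives were other normalizations, filters and tools (DESeq2 1.42.0, limma-voom in limma 3.58.1), a replicate block and each library left out. Added after seeing the data was the removal of both libraries numbered 2. No replicate was a duplicate of another: the chi-square between counts of any pair in a diet, divided by the number of genes, was at least 20.01. 1 of the 46 members entered all counts, medians and tests, but its own values are not reported here.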

Additional observations from a re-analysis of the deposited data

Results flagged for a closer look

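A library far from the other 3 of its diet was found in 4 of 86 groups tested, and chance alone gives such a value in about 1 of 20 groups, so this number is at the chance rate. Ndufab1 was at 278.5 CPM in control 2 against 237 to 244 CPM in the other controls. Ndufaf6 was at 13.55 CPM in control 2 against 10.6 to 10.9 CPM. Sdhc of complex II was at 479.3 CPM in control 2 against 355 to 367 CPM. Mrpl3, a mitochondrial ribosomal protein, reached 44.71 CPM in adenine 4, above the 37.2 to 38.3 CPM of adenine 1, 2 and 3. In 3 of the 4 genes the library was control 2, which has the largest total count and was the highest library for 25 of the 46 nuclear complex I genes. The cause was not tested.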

How the results depend on the processing

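None of the 46 nuclear complex I genes, and none of the 7 mitochondrial ones where tested, was called under the 19 alternatives run or at an adjusted p under 0.1. The lowest adjusted p of any nuclear gene under any of them was 0.104, for Ndufaf3 without adenine 3 (edgeR). The median log2 fold change of the 46 genes was -0.28 to -0.13 with each library left out, -0.12 with a filter of 1 CPM in 4 libraries, and -0.0341 with cyclic loess, which by construction removes trends along abundance. Among all genes tested, 8 were called by the test as reported, 19 with upper-quartile factors, 272 with DESeq2, 5 with limma-voom and 1 to 67 with each library left out; the cause was not tested. With the replicate number as a block 32 genes were called, 16 in each direction, the nuclear complex I median was -0.20 and 0 of 46 were called. Libraries with equal numbers did not deviate together: their correlations were 0.09, -0.50, -0.16 and 0.30, and control 4 correlated best with adenine 2 (0.54).

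Signs turned for several of the genes named, none of them called, and over all 46 nuclear genes 34 were below 0 with upper-quartile factors and 28 with cyclic loess. Ndufb9 had -0.0013 with DESeq2 size factors, -0.0672 with length and GC trends removed, -0.0561 with DESeq2 and -0.0143 without the filter, and -0.0919 to 0.1327 with each library left out. With upper-quartile factors Ndufa4 had 0.0129, Ndufs3 0.0346, Ndufs8 0.0309, Ndufb2 0.0484 and Ndufa3 0.0117. With cyclic loess Ndufa4 had 0.0126, Ndufa4l2 0.0178, Ndufs3 0.0431, Ndufs8 0.0484, Ndufv2 0.0019, Ndufb2 0.0847 and Ndufa3 0.0324. Without both libraries numbered 2, Ndufs8 had 0.0203. Ndufb2 had -0.1937 to 0.0421 with each library left out. With length and GC trends removed, mt-Nd1 had -0.19, mt-Nd2 -0.19, mt-Nd3 -0.28, mt-Nd4 -0.21, mt-Nd4l -0.0586, mt-Nd5 -0.0602 and mt-Nd6 -0.14, and mt-Nd3 had -0.0279 with DESeq2. With each library left out the ranges were -0.0636 to 0.1522 for mt-Nd1, -0.0167 to 0.2437 for mt-Nd2, -0.0739 to 0.1109 for mt-Nd3 and -0.0911 to 0.2759 for mt-Nd4l. Depth limited the members with many reads little, but the shallowest gene had 176 reads in its lowest library, where counting error is larger.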
